A study of Mus musculus with 8 samples.

Results

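The miR-30 family comprises miR-30a, miR-30b, miR-30c, miR-30d and miR-30e, the guide strands of hairpins whose opposite strands carry an asterisk in the older nomenclature of the array. The members described here are the 5 guide strands and 3 opposite strands, miR-30a*, miR-30c-2* and miR-30e*, taken as every mouse probe that the array files assign to mmu-miR-30a, mmu-miR-30a*, mmu-miR-30b, mmu-miR-30c, mmu-miR-30c-2*, mmu-miR-30d, mmu-miR-30e or mmu-miR-30e*. They were 8 of the 567 mouse miRNAs on the array and 8 of the 126 miRNAs that were tested, those detected on at least 4 arrays. The study set skeletal muscle of 4 control samples against that of 4 diabetic samples from mice, each on its own 1-colour Agilent miRNA array with Cy3-labelled total RNA. The design text of the series names the diabetic mice as C57BL/KsJ db/db, which lack a working leptin receptor and become obese, and the controls as C57BL/KsJ db+. The strain entries of the samples state the reverse. Every direction below therefore follows the samples' titles, descriptions and group entries, as diabetic minus control. No age, sex or muscle is given in the sources used here, nor whether each array holds RNA of 1 animal or of a pool, so p-values measure only the spread between these arrays.

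A miRNA is cut from its hairpin as a duplex, of which 1 strand, the guide, is usually kept in the silencing complex while the other is mostly degraded. Bases 2 to 8 of the retained strand, the seed, pair with target mRNAs, and the miR-30 guides are grouped as a family because they share that seed. Known targets of the family include the mRNAs of the matrix growth factor Ccn2, of the autophagy protein beclin 1 and of the transcription factor Runx2. In muscle cells miR-30 is known to repress Tnrc6a, a component of the silencing machinery.

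The mature sequences are shown to make clear which members an array probe has to tell apart. RefSeq (GRCm38.p6) gave a sequence for 6 of the 8 members, matched as the -5p strand for a guide and the -3p strand for a strand with an asterisk. Seeds are in capitals and sequences run 5′ to 3′.
miR-30a: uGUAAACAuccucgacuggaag
miR-30c: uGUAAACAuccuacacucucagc
miR-30e: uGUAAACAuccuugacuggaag
miR-30a*: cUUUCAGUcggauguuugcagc
miR-30e*: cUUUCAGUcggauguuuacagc
miR-30c-2*: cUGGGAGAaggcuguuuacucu
The 3 guides share the seed GUAAACA. miR-30a* and miR-30e* share another, UUUCAGU, while that of miR-30c-2* is UGGGAGA. Counting positions from 1 at the 5′ end, miR-30a and miR-30e differ at 1 of 22 bases (C13U), and miR-30a* and miR-30e* also differ at 1 of 22 (G18A). miR-30c differs from miR-30a at 5 of the 22 bases they share by position, the first of them base 13. Whether the probes of such near-identical members bind each other's target was not tested. miR-30b and miR-30d were measured but have no sequence here.

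The hairpins show how the strands compared below are joined, with the mature strands in capitals.
Mir30a: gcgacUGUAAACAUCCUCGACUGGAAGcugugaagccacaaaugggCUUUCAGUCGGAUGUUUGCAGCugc
Mir30c-2: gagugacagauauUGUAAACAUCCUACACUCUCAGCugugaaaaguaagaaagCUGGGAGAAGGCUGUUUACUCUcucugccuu
Mir30c-1: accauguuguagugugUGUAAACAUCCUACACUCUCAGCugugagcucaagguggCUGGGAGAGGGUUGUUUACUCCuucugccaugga
Mir30e: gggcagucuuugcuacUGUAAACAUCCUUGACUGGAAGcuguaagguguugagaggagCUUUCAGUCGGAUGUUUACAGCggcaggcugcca
In RefSeq's GRCm38.p6 annotation Mir30a lies at chr1:23272269-23272339 and Mir30c-2 at chr1:23291701-23291784, both on the plus strand and 19361 bases apart. Mir30c-1 (chr4:120769534-120769622) and Mir30e (chr4:120772606-120772697) lie on the minus strand, 2983 bases apart. Both overlap the gene Nfyc, which encodes a subunit of the transcription factor NF-Y; the table used does not say whether in an exon or an intron. Mir30b and Mir30d neighbour each other on chromosome 15. miR-30c is cut from both Mir30c-1 and Mir30c-2, so its level cannot be divided between them, whereas miR-30c-2* comes from Mir30c-2. The array also carried miR-30b* and miR-30c-1*, which are not among the members: 1 control array and 0 diabetic arrays detected miR-30b*, and 0 of 8 detected miR-30c-1*.

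The values are spot intensities. A relative level is the mean processed intensity of a miRNA's probes divided by the array's own scaling factor, the 75th percentile of intensity over the 152 probes detected on all 8 arrays, and it is given as log2. The scaling factor ran from 219 on diabetic 4 to 618 on control 2, which was thus the brightest array. All 8 arrays shared 1 slide, on which row 1 held the controls and row 2 the diabetic samples, so row and group cannot be told apart. The muscle miRNAs miR-1, miR-133a, miR-133b and miR-486 were detected and summed, with miR-206 and miR-208b, to 53.0 to 104 times the scaling factor on the control arrays and to 78.3 to 107 times on the diabetic arrays. Most of that sum is miR-1, miR-133a and miR-133b, with log2 differences of 0.34, 0.095 and 0.11. The differences of miR-206, miR-208b and miR-486 were negative, at −1.33 (SE 0.44), −0.53 (SE 0.54) and −0.022 (SE 0.28). Of these 6 miRNAs, 0 passed the test described below. miR-499 was detected on 0 arrays.

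No member of the family passed the test for a difference between diabetic and control muscle. With limma and Benjamini-Hochberg adjustment over the 126 tested miRNAs, 0 of 8 members had an adjusted p under 0.05, where 4.76% of all tested miRNAs passed in the higher direction and 0% in the lower. At an unadjusted limma p under 0.05 the count was again 0 of 8, against 16.7% of all tested miRNAs. The diabetic and control arrays overlapped for all 8 members, while they did not overlap for 8.73% of the tested miRNAs, 7.94% with the diabetic arrays higher and 0.794% with them lower. A positive log2 difference was found for 7 of 8 members, compared with 58 of all 126. The median log2 difference was 0.23 over the 5 guides and 0.21 over the 3 opposite strands, against −0.06 over all tested miRNAs. Without control 2 the guide median was 0.10 and the median of all tested miRNAs −0.13, and 6 of 8 members were positive, compared with 49 of all 126.

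**Figure D1:**
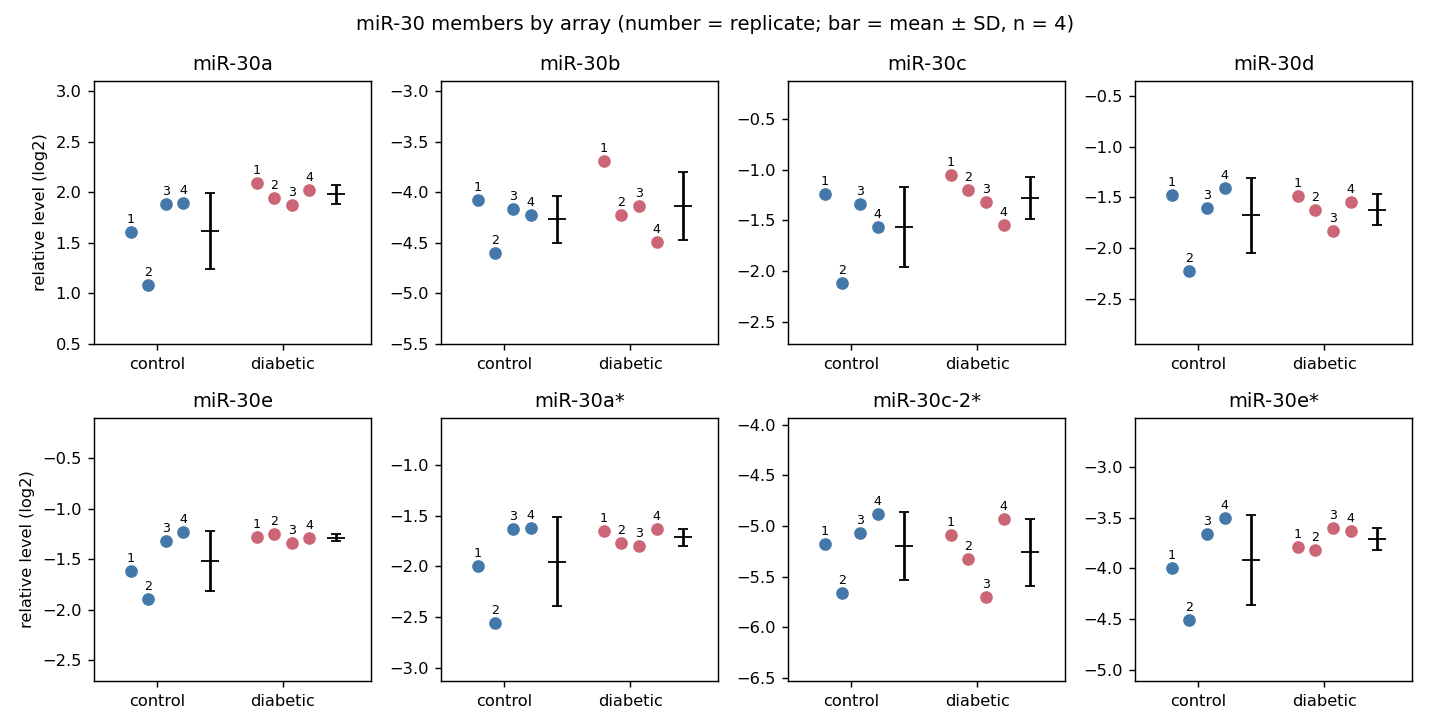
Relative level (log2 of intensity over the array's 75th percentile) of each member on every array, with the replicate number above each point and the mean ± SD (n = 4) beside each group; every panel spans the same number of log2 units. Control 2 is the lowest array for every member except miR-30c-2*, for which diabetic 3 is the lowest.

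miR-30a had the largest difference of the family over all 8 arrays, but other members had the largest without control 1 or diabetic 4 (miR-30c, 0.39 and 0.38), without control 2 (miR-30c-2*, −0.22) and with quantile normalization (miR-30b, 0.48). Its relative log2 levels were 1.60, 1.09, 1.88 and 1.89 on control 1 to 4 and 2.09, 1.94, 1.87 and 2.02 on diabetic 1 to 4. Of the diabetic arrays, 3 lay above every control array, but diabetic 3 was just below control 3 and control 4, so the groups overlapped. The group means were 1.62 ± 0.38 and 1.98 ± 0.10 (SD, n = 4), a 1.29-fold difference (log2 0.36, SE 0.23, limma adjusted p = 0.498). The 95% interval ran from 0.91-fold to 1.81-fold. Without control 2 the difference was 0.19, and with quantile normalization it was −0.053. All 3 probes of miR-30a were detected on all 8 arrays, and their separate differences were 0.35, 0.42 and 0.35, although their median intensities were 148, 867 and 2810.

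miR-30e is the guide that differs from miR-30a by a single base. Its levels were −1.62, −1.89, −1.32 and −1.24 on the control arrays and −1.29, −1.25, −1.34 and −1.29 on the diabetic arrays. The 4 diabetic arrays lay close together, inside the range of the controls and next to control 3 and control 4. The difference was 0.23 on the log2 scale (SE 0.21, limma adjusted p = 0.699), and 0.10 without control 2. Diabetic arrays had an SD of 0.036 for this miRNA and control arrays one of 0.30.

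miR-30c, made from hairpins on chromosomes 1 and 4, had levels of −1.24, −2.12, −1.34 and −1.57 on the control arrays and of −1.05, −1.20, −1.32 and −1.55 on the diabetic arrays. Diabetic 1 and diabetic 2 exceeded every control array, while diabetic 4 was close to control 4. The diabetic mean was higher by 0.29 in log2 (SE 0.24, limma adjusted p = 0.699), and it was 0.10 without control 2. Its brighter probe gave 0.31 and its dimmer one 0.10.

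miR-30d and miR-30b, whose genes are neighbours, had smaller differences. The levels of miR-30d were −1.48, −2.23, −1.60 and −1.41 on the control arrays and −1.48, −1.63, −1.84 and −1.55 on the diabetic arrays. Control 4 was the highest and control 2 the lowest of all arrays, with the 4 diabetic arrays between them. The log2 difference was 0.055 (SE 0.23, limma adjusted p = 0.886), with a 95% interval from 0.73-fold to 1.47-fold. It was −0.13 without control 2 and −0.051 without scaling, the reverse direction.

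The levels of miR-30b were −4.08, −4.60, −4.17 and −4.23 on the control arrays and −3.69, −4.23, −4.13 and −4.49 on the diabetic arrays. Diabetic 1 was the highest array and control 2 the lowest, with the other 6 intermingled. The log2 difference was 0.13 (SE 0.23, limma adjusted p = 0.821); it was −0.014 without diabetic 1 and 0.022 without control 2. Its level averages 2 probes. The brighter one had intensities of 18.4 to 49.98, a median coefficient of variation between spots of 21.2% and a difference of 0.11 by itself. The other was detected on 0 of 8 arrays and made up 8.7% of the level.

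Among the opposite strands, miR-30a* had levels of −1.99, −2.56, −1.63 and −1.62 on the control arrays and of −1.65, −1.77, −1.80 and −1.63 on the diabetic arrays. The diabetic arrays lay between control 1 and control 4. Their mean exceeded that of the controls by 0.24 on the log2 scale (SE 0.24, limma adjusted p = 0.699), and 0.037 without control 2. Both of its probes were detected on all arrays and gave 0.16 and 0.27.

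miR-30e* had levels of −3.99, −4.51, −3.66 and −3.50 on the control arrays and of −3.79, −3.82, −3.60 and −3.63 on the diabetic arrays. As for miR-30a*, control 2 was lowest, control 4 highest and the diabetic arrays lay in between. A log2 difference of 0.21 resulted (SE 0.24, limma adjusted p = 0.727), and 0.012 without control 2. Of its 2 probes, the brighter gave 0.22 by itself, and the other was detected on 0 of 8 arrays and made up 7.7% of the level.

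miR-30c-2* had the single negative difference. Its levels were −5.18, −5.66, −5.07 and −4.88 on the control arrays and −5.09, −5.33, −5.70 and −4.93 on the diabetic arrays. The groups covered nearly the same range, and diabetic 3 was lowest. The log2 difference was −0.063 (SE 0.25, limma adjusted p = 0.886). It was 0.083 without diabetic 3, 0.043 without control 4 and −0.22 without control 2, and it was also positive under 4 other settings, up to 0.34 with quantile normalization. This member was close to background: its 1 detected probe had intensities of 14.4 to 22.8 on all 8 arrays, a narrower span than that of the scaling factor, and on diabetic 4 it did not count as detected, with 2 of 8 spots well above background.

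**Figure D2:**
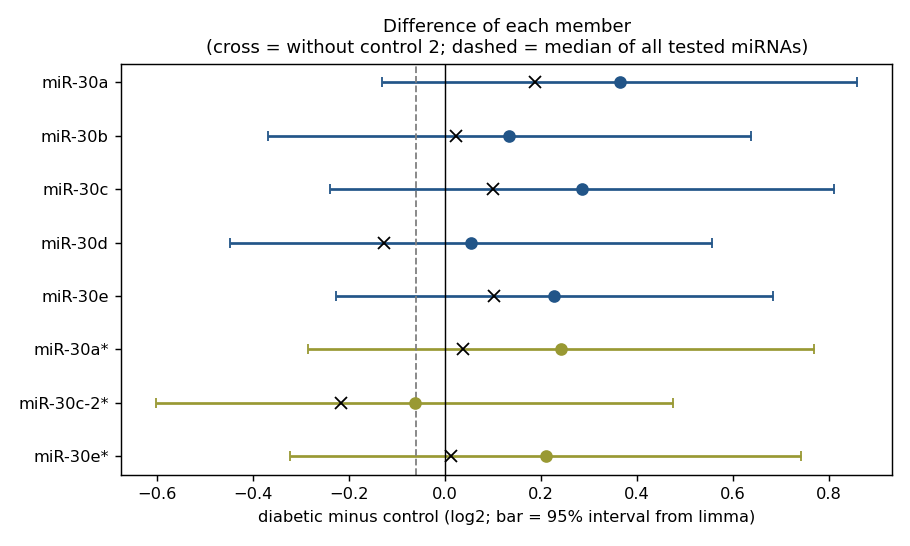
Diabetic minus control difference (log2) of each member, with circles for the value over all 8 arrays, bars for the 95% interval from limma, crosses for the value without control 2 and a dashed line at the median of all tested miRNAs, −0.06. Guides are blue and opposite strands olive. All 8 intervals include 0, and every cross lies to the left of its circle.

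Control 2 was the lowest array for 7 of the 8 members and for 61 of all 126 tested miRNAs, or 48.4%. On it the mean log2 level of the 5 guides was −1.95, while the other 7 arrays held between −1.37 and −1.08. Control 2 also had the highest scaling factor, and the part of that factor in its low levels was not tested. Before scaling, the brightest miR-30a probe had an intensity of 2890 on control 2, above the 2044, 2729 and 2703 of controls 1, 3 and 4. The brighter miR-30a* probe had 152 on control 2, between the 115 of control 1 and the 161 and 159 of controls 3 and 4. The control SD exceeded the diabetic SD for 6 of 8 members, with miR-30b and miR-30c-2*, the dimmest members, as the exceptions, and for 113 of 126 tested miRNAs.

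The strands of a hairpin were compared by the log2 ratio of the guide to the opposite strand within each array. This ratio does not depend on the scaling of an array as a whole. Because it mixes the responses of different probes, it was read only as a difference between groups. The difference was tested with a two-sided exact permutation test over the 70 assignments of arrays, whose smallest possible p is 0.0286, and adjusted over the 3 hairpins. Its range is given as the lowest to highest difference between a diabetic and a control array. For 4 against 4 arrays that range is an exact 97.1% interval if the groups differ only by a shift.

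In the Mir30a hairpin the strand ratio varied less over the 8 arrays than either strand alone, a contrast that leans on control 2. The log2 ratio of miR-30a to miR-30a* was 3.594, 3.648, 3.518 and 3.506 on the control arrays and 3.736, 3.705, 3.666 and 3.652 on the diabetic arrays. The groups did not overlap, with the diabetic arrays higher, although diabetic 4 exceeded control 2 by only 0.0036. Among all 7875 within-array ratios of 2 tested miRNAs, 18.2% did not overlap between the groups. The means were 3.57 ± 0.067 and 3.69 ± 0.038 (SD, n = 4). The ratio was 1.09-fold higher on the diabetic arrays (log2 0.12, interval 0.0036 to 0.23, two-sided exact permutation p = 0.0286), with an adjusted p of 0.0857 over the 3 hairpins. That is the smallest adjusted p that 1 hairpin alone can reach with this permutation test, so the test did not allow it to pass. The difference was 0.15 without control 2, and −0.32 with quantile normalization, the reverse direction. Over the 8 arrays the SD of the ratio was 0.083, while that of each strand alone was 0.32. On control 2 each strand was at its lowest, yet the ratio was within the range of the other arrays. miR-30a was at 1.09 there and at 1.60 to 2.09 on the other arrays, and miR-30a* at −2.56 against −1.99 to −1.62. Much of the SD of each strand thus came from control 2, and the SDs without it were not computed. A small SD of the ratio was not limited to the hairpin: miR-1 had one of 0.061 against miR-30a, and miR-22 one of 0.072 against miR-30a*.

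For the strands of the Mir30e hairpin no difference in ratio between the groups was detected. The log2 ratio of miR-30e to miR-30e* was 2.37, 2.62, 2.34 and 2.26 on the control arrays and 2.500, 2.57, 2.26 and 2.34 on the diabetic arrays. The groups covered nearly the same range, and control 2 was highest. The difference was 0.018 (interval −0.36 to 0.30, or 0.78-fold to 1.23-fold, two-sided exact permutation p = 0.971, adjusted p = 0.971). The difference was 0.091 without control 2 and −0.29 with quantile normalization, and leaving out control 3, control 4, diabetic 1 or diabetic 2 gave values from −0.033 to −0.0020.

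For miR-30c and miR-30c-2* the ratio had the widest spread of the 3 hairpins. It was 3.94, 3.54, 3.74 and 3.31 on the control arrays and 4.04, 4.13, 4.38 and 3.38 on the diabetic arrays. Diabetic 1, 2 and 3 were above every control, and diabetic 4 was below all controls except control 4. The difference was 0.35, a 1.27-fold higher ratio with an interval from 0.68-fold to 2.09-fold (two-sided exact permutation p = 0.2, adjusted p = 0.3). Without diabetic 4 it was 0.55 (exact permutation adjusted p = 0.0857), without diabetic 3 it was 0.22, and with quantile normalization −0.047. The opposite strand was close to background, as given above, and miR-30c also comes from Mir30c-1.

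**Figure D3:**
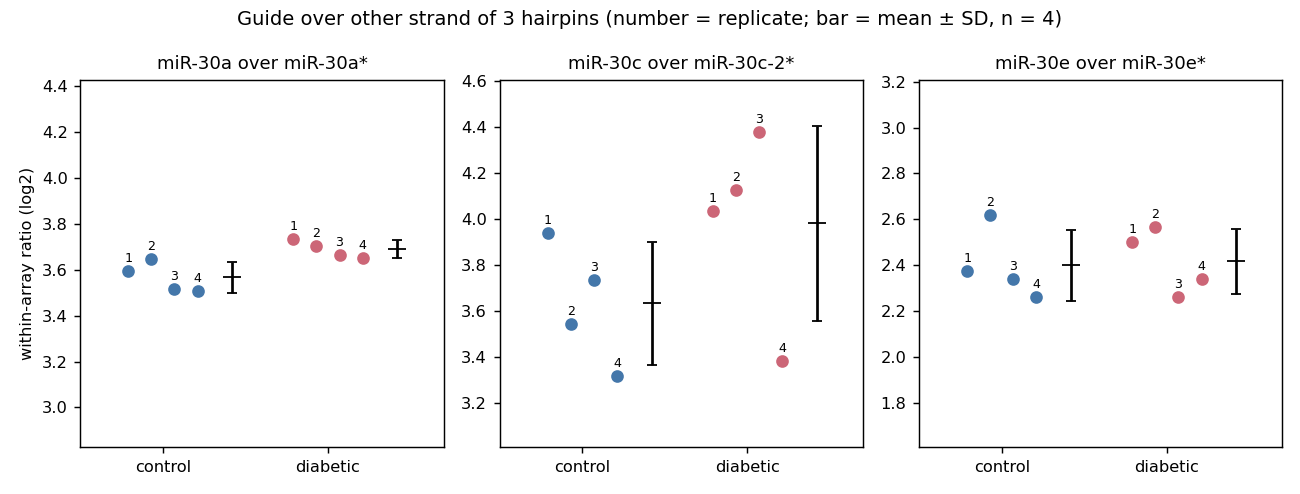
Within-array log2 ratio of guide to opposite strand for the 3 hairpins, with the replicate number above each point and the mean ± SD (n = 4) beside each group; every panel spans the same number of log2 units. The points of miR-30a over miR-30a* lie between 3.506 and 3.736, a far narrower band than those of miR-30c over miR-30c-2*, between 3.31 and 4.38.

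In 6 other hairpins both strands were tested, those of miR-24, miR-29c, miR-133a, miR-140, miR-199b and miR-378. The SD of their strand ratio over the 8 arrays ran from 0.12 to 0.74 with a median of 0.30. The SD of miR-30a over miR-30a*, 0.083, lay below all 6, that of miR-30e over miR-30e*, 0.14, below 5 of 6, and that of miR-30c over miR-30c-2*, 0.38, within their range. Their differences between the groups were 0.075 to 0.87 in absolute size with a median of 0.28, and the groups overlapped in all 6. The difference of miR-30a over miR-30a*, 0.12, was smaller in size than in 5 of the 6, although its groups did not overlap. These values are a description without a test.

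The guides were also set against one another, as members that share a seed, by the same within-array ratio over their 10 pairs. In 1 pair of 10, miR-30a over miR-30d, the groups did not overlap. Over all 7875 pairs of tested miRNAs the share of such ratios was 18.2%, so 1 of 10 is not above the background. The log2 ratio was 3.08, 3.31, 3.49 and 3.30 on the control arrays and 3.57, 3.57, 3.70 and 3.57 on the diabetic arrays. Each diabetic array exceeded the highest control, control 3. The ratio was 1.24-fold higher on the diabetic arrays (log2 0.31, interval 0.080 to 0.63, two-sided exact permutation p = 0.0286). Its adjusted p over the 10 pairs was 0.286, again the smallest that 1 pair alone can reach with this permutation test. The difference was 0.31 without control 2 and −0.16 with quantile normalization, the reverse direction. Both probes of miR-30d had differences near 0 (0.028 and 0.073), and the 3 probes of miR-30a had those given above.

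The other 9 pairs overlapped between the groups, with differences from −0.17 for miR-30d over miR-30e to 0.23 for miR-30c over miR-30d and for miR-30a over miR-30b, and adjusted p-values of at least 0.524. miR-30a over miR-30e, the pair that differs at 1 base, had a difference of 0.14 (interval −0.035 to 0.39, two-sided exact permutation p = 0.171, adjusted p = 0.524). For miR-30b over miR-30d, the neighbours on chromosome 15, it was 0.079 (interval −0.56 to 0.61), and −0.022 without diabetic 1. A missed threshold does not show that these members moved alike: the widest interval, of miR-30b over miR-30e, ran from −0.74 to 0.59.

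**Figure D4:**
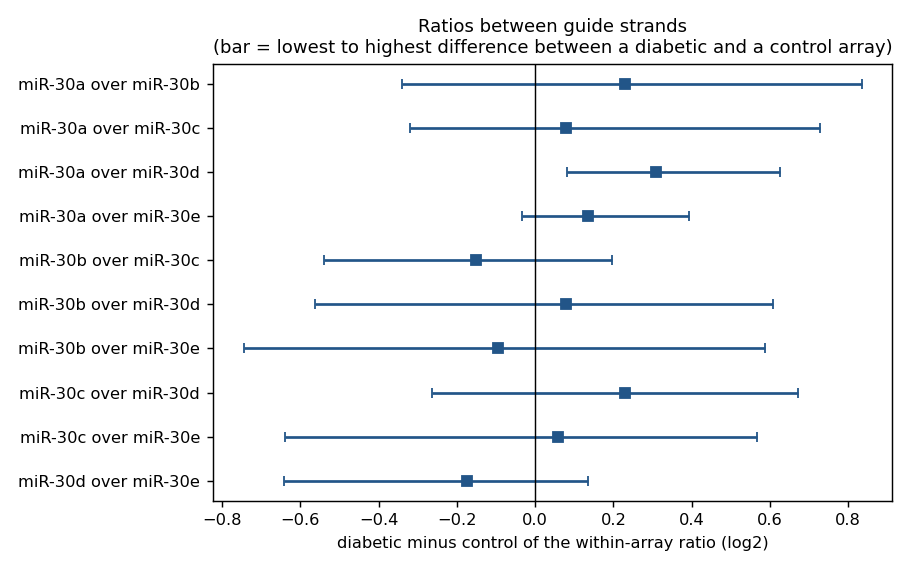
Diabetic minus control difference (log2) of the within-array ratio for the 10 pairs of miR-30 guides, with squares for the difference of group means and bars from the lowest to the highest difference between a diabetic and a control array. The bar of miR-30a over miR-30d, from 0.080 to 0.63, is the only one that does not include 0.

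Each member's profile over the 8 arrays was compared with those of the other 125 tested miRNAs by the SD of their within-array log2 ratio, where a small SD means a like profile. This ranking is a description without a test, and the arrays share one slide and the low values of control 2. For miR-30a the nearest was miR-1, with miR-30a* 4th of 125. For miR-30a* the nearest was miR-22, with miR-30a 3rd. For miR-30d the nearest was let-7d, with an SD of 0.076. The other 7 members ranked from 24th to 48th for it, the closest being miR-30c-2* with an SD of 0.17. For miR-30e* the nearest of all 125 was miR-30a*, the strand that differs from it at 1 base, with an SD of 0.10. For miR-30b the nearest was miR-30c, with an SD of 0.17, and for miR-30c it was miR-26a, with miR-30b next. For miR-30c-2* the nearest was miR-126-3p, with miR-30d 4th. In contrast, miR-30c ranked 61st of 125 for miR-30c-2*, with an SD of 0.38.

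Outside the family, the 5 miRNAs whose profile was most like the mean of the 5 guides were miR-196a, miR-22, miR-151-5p, miR-1 and miR-23b. Their SDs of the ratio over the 8 arrays were 0.11, 0.12, 0.13, 0.13 and 0.13, compared with a median of 0.39 over the 118 miRNAs outside the family. The muscle-specific miR-1 had a log2 difference of 0.34 and miR-22, which is abundant in muscle, one of 0.30. Neither passed (limma adjusted p = 0.518 and 0.658).

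Of 22 other miRNAs listed because they act beside miR-30 on genes of the matrix and of growth factors, 20 were tested, 2 rose and 0 fell, where 4.76% of all tested miRNAs rose. The 2 were miR-29b (log2 difference 0.99, SE 0.22, limma adjusted p = 0.0283) and miR-29c (1.25, SE 0.20, limma adjusted p = 0.00642), which repress collagen mRNAs. Without scaling neither passed. miR-29c passed under 20 of 21 alternatives, among them all 8 with 1 array left out. miR-29b passed under 12 of 21, and failed also with detection on at least 1 array and with no filter. With the 8 arrays left out in turn, miR-29b passed in only 2 cases (controls 3 and 4), and its differences were 0.88 to 1.17. The median difference of the 20 was 0.049, against −0.06 over all tested miRNAs, and 11 of 20 were positive, against 58 of 126. miR-133a and miR-133b, which like miR-30 repress Ccn2, had log2 differences of 0.095 (SE 0.28) and 0.11 (SE 0.27), and miR-21 had one of 0.13 (SE 0.19), each with a limma adjusted p of at least 0.792.

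Lists of miRNAs typical of other cells were examined because the muscle RNA can hold those cells. In bulk RNA, fewer cells of a type and less miRNA per cell cannot be told apart. No listed miRNA passed. The 4 tested stromal miRNAs (of 6 listed) summed to 0.56 to 0.90 times the scaling factor on the control arrays and to 0.53 to 0.56 on the diabetic arrays. All 4 had negative differences, from −0.66 for miR-199a-5p to −0.030 for miR-143, with a median of −0.50. Of all 126 tested miRNAs, 58 had positive differences. The 3 tested leukocyte miRNAs (of 6) summed to 0.35 to 1.85 and 0.19 to 0.63, with a median difference of −0.80, and miR-150 was detected on 0 arrays. miR-451 of red blood cells ran from 0.85 to 2.35 and from 0.68 to 1.49, and the endothelial miR-126-3p from 1.59 to 2.65 and from 1.79 to 2.45. Of the 3 liver and kidney miRNAs 2 were tested, with sums of 0.048 to 0.19 and 0.069 to 0.13, and miR-194 was detected on 0 arrays. The part of these cells in the levels of the miR-30 members was not tested.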

How the data were processed

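The deposited values are spot intensities of 8 1-colour arrays. Per the file headers, they were read with Feature Extraction 10.5.1.1 and the processed intensity is background-subtracted, with no normalization between arrays; the deposited flags are a score of 0 or 1. The labelling used 100 ng of RNA for each array, per the labels' protocols. Each array held 12493 spots, 11340 of them of 1672 mouse miRNA probes. Members had 17 probes with 160 spots per array; 75 of their 1280 spot values were outliers and dropped, 0 were saturated, and the median coefficient of variation between spots of a detected probe was 9.49%. The number of arrays, 4 per group, limits the precision.

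A probe counted as detected where at least 50% of its spots were well above background. Probe means were scaled by the array's 75th percentile, taken over commonly detected probes, and averaged per miRNA before the log. Levels under 0.0162, the 1st percentile among detected ones, were set to it, and log2 was taken. miRNAs detected on at least 4 of 8 arrays were tested with limma 3.58.1 in R 4.3.3 (adjusted p threshold 0.05). The fit was first tested on simulated data. Named miRNAs were all 8 members, the 5 nearest profiles, and listed miRNAs that passed, plus examples chosen after their values were seen. Members and lists were chosen with earlier results of these data known. Alternatives covered scaling, background correction (normexp with offset 50 on the median spot signal, since no mean signal column is used here), probe summary, outlier spots, detection filter, the replicate number as a block and leaving out each array. Figures were drawn with matplotlib 3.10.9.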

Additional observations from a re-analysis of the deposited data

Results flagged for a closer look

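In 42 groups of 4 arrays (levels of 8 members, 3 strand ratios and 10 guide ratios, each in control and diabetic arrays), 2 had an array that stood far from the other 3, where chance flags about 1 in 20. For miR-30a over miR-30c, diabetic 4 had a log2 ratio of 3.57, while the other diabetic arrays had 3.14 to 3.19. For miR-30a over miR-30d, diabetic 3 had a log2 ratio of 3.70, while the other diabetic arrays lay at 3.57. The level of no member was flagged in this way, including that of control 2, whose distance from the other control arrays stayed under the critical value.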

How the results depend on the processing

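The number of members called was 0 under all 21 alternatives, and the lowest limma adjusted p of a member under any of them was 0.13, for miR-30a. The number of all miRNAs called, 6, was 0 without scaling, 10 with the brightest probe, 2 with detection on at least 1 array or no filter, and 2 to 10 with 1 array left out. Of 167 recomputed member differences, 157 kept their direction. The reversals were miR-30a at −0.053 with quantile normalization, miR-30d at −0.051 without scaling, and miR-30c-2* at 0.26 when the percentile covered all mouse probes, 0.34 with quantile normalization, 0.064 with normexp and 0.049 with outlier spots kept. With 1 array left out, miR-30b ran from −0.014 to 0.25, miR-30d from −0.13 to 0.14 and miR-30c-2* from −0.22 to 0.083. The guide median was 0.55 when the percentile covered all mouse probes, where the median of all tested miRNAs was 0.26. Quantile normalization reversed the strand ratio differences to −0.32 (miR-30a), −0.047 (miR-30c) and −0.29 (miR-30e), and the guide pairs miR-30a over miR-30b (−0.53), miR-30c (−0.34), miR-30d (−0.16) and miR-30e (−0.21), miR-30b over miR-30c (0.19) and miR-30b over miR-30e (0.32). With outlier spots kept, miR-30c over miR-30e was −0.021. The cause of these reversals was not tested. With 1 array left out, the ratio of miR-30e to miR-30e* ran from −0.033 to 0.091, miR-30a over miR-30c from −0.034 to 0.17 (reversed without control 1 or diabetic 4), miR-30b over miR-30d from −0.022 to 0.22 (diabetic 1), miR-30b over miR-30e from −0.24 to 0.025 (control 1 or diabetic 4) and miR-30c over miR-30e from −0.036 to 0.20 (control 2, control 4 or diabetic 1). miR-30c-2* was not detected on all 8 arrays and has no value under that filter.

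Replicate numbers match slide columns, so same-numbered arrays share a column. Deviations of same-numbered arrays correlated at 0.21, 0.082, 0.51 and −0.29, and 4 correlations cannot show whether these arrays are paired. With the replicate block the differences were the same (miR-30a 0.36, limma adjusted p = 0.542; miR-30c-2* −0.063, 0.885), 0 members and 10 of all tested miRNAs were called, and the strand ratio of miR-30a had an adjusted p of 0.188. Exchange within 4 pairs allows 16 assignments and no p under 0.125, so a blocked ratio could not pass. Intensities near background limit miR-30b and miR-30c-2*.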
